A study of Mus musculus with 12 samples.

Results

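H3K9me3 regions in the Skint and Klra gene clusters were described in mouse neural progenitors that lack Setdb1, next to wild-type (WT) progenitors. The members are the regions of the authors' H3K9me3 comparison table whose gene symbol is Skint or Klra followed by a number, 124 of 50654 listed regions. The Skint cluster of chromosome 4 held 88 of them under 9 gene symbols, and the Klra cluster of chromosome 6 held 36 under 10 symbols. These regions were selected on the H3K9me3 values themselves: the authors listed regions by the contrast of knockout (KO) against WT, and the families were chosen by their direction in it. Their H3K9me3 values are therefore a description and carry no test.

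The cells were neurosphere cultures grown from the ganglionic eminence of C57BL/6 embryos at E15.5 (embryonic days), and the labels give the KO genotype as Nestin-KO. Nestin is a gene of neural progenitors, and Setdb1 encodes an enzyme that methylates lysine 9 of histone H3. Each library came from native ChIP-seq on 100000 nuclei, with 3 KO and 3 WT animals for H3K9me3, a mark of silenced chromatin, and 3 and 3 other animals for H3K27ac, a mark of active promoters and enhancers. For H3K9me3 the 3 KO embryos were all male, while WT had 2 female embryos and 1 male, so genotype and sex cannot be fully told apart. The first number of their titles, whose meaning the labels do not give, was 304 for 1 KO and 1 WT library, 508 for the other 2 KO and 464 for the other 2 WT libraries, so it too is largely confounded with genotype. Neither mark measures Setdb1 itself, and how complete the deletion was in each culture was not measured here.

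Skint genes encode membrane proteins related to butyrophilins. Skint1 is needed in the thymus for the selection of the gamma delta T cells that later settle in the epidermis, and the other members are mostly expressed in thymus and skin. Klra genes encode the Ly49 receptors, lectin-like proteins on natural killer cells that bind MHC class I molecules and that either inhibit or activate the cell. Both families grew by tandem duplication in rodents, vary in gene number between mouse strains, and are not known for a role in neural progenitors.

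The start sites of both families are poor in CG dinucleotides. In windows of 300 bases around the start (250 bases before it), the 12 windows of the 11 Skint genes held 0 to 2 CG, with a median of 1, and the 13 windows of 11 Klra genes held 0 to 4, with a median of 2. The median over 32851 mouse promoter windows was 7. A count of 5 CG or fewer was found in 100% of the windows of each family and in 43.6% of all windows, and the median GC content was 38.5% for Skint, 37.7% for Klra and 52.7% for all. These sequences are from RefSeq on GRCm38.p6.

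Skint6 and Skint5, the genes with the most listed regions, also have the most similar upstream sequences of the Skint family. Their 250 bases before the start site, on the minus strand at chr4:113286974-113287223 for Skint6 and chr4:113999504-113999753 for Skint5, are identical at 222 positions without a gap. That is 88.8%, and the next most similar Skint pair by identical bases, Skint10 and Skint11, reached 57.8% of the aligned columns. They are shown here 5′ to 3′, with the 28 differing positions in capitals.
Skint6: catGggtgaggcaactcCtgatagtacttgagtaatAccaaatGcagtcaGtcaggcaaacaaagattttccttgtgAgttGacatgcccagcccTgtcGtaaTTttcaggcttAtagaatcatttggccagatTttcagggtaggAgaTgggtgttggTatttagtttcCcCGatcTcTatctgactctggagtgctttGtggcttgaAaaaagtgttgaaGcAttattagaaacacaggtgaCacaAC
Skint5: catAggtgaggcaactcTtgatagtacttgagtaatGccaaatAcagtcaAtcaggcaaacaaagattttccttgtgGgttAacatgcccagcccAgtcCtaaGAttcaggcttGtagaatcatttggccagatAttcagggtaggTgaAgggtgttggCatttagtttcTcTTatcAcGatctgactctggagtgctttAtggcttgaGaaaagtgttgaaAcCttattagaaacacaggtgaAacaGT

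Of both families, Klra7 is the only gene with a promoter window that a listed region overlapped. That region covered all 300 bases of the window at its downstream start and 28 bases of the window at its upstream start. The 250 bases before the upstream start, which begin 23 bases past the end of the region, on the minus strand at chr6:130233323-130233572, are shown with those of Klra17 at chr6:129876673-129876922, whose window of 300 bases had a listed region 179 bases away. The aligned pair shared 204 bases, 76.4% of the aligned columns, and the capitals mark the longest run of 26 bases that both hold.
Klra7: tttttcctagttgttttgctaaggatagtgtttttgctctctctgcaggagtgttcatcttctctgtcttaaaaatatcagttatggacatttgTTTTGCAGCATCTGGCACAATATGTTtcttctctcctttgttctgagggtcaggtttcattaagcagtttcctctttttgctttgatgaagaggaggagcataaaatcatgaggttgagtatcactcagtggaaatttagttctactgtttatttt
Klra17: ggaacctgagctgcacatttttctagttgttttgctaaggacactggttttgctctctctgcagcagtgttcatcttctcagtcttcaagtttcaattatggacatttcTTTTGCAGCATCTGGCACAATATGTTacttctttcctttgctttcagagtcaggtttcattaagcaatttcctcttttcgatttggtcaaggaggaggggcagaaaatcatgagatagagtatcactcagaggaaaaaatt
That run began at base 95 of the Klra7 stretch and at base 110 of the Klra17 stretch. How reads that map to more than 1 copy were treated upstream was not analysed here.

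In the Skint cluster the listed H3K9me3 was higher in KO at nearly every region. Of the 88 Skint regions, 84 were higher and 4 lower at the authors' adjusted p of 0.05 or less, where 28.9% of all 50654 listed regions were higher and 71.1% lower. The median log2 fold change (KO over WT, in the authors' deposited table) was 0.83 over the 88 Skint regions and -0.94 over all listed regions. Among the 84 higher Skint regions it ran from 0.4 to 2.03. Of these 84, 22 reached 1, beside 3648 of the 14615 higher regions of the whole table, and nothing is read from this count.

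The table gives 3 normalised read counts per genotype and does not say which animal each belongs to, so they are named by their place in the cell (first, second, then the third). Over the 84 higher Skint regions the median normalised read counts were 61.1, 43.4 and 53.8 in KO and 31.0, 25.8 and 29.0 in WT. At 60 of the 84 (71.4%) all 3 KO values lay above all 3 WT values, a pattern found at 20.2% of all listed regions and at 70.0% of the higher ones. The share of regions with separate groups was therefore close to that of higher regions at large, and nothing is read from it.

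Summed over all 88 Skint regions, the normalised read counts were 5732, 4047 and 5185 in KO and 3053, 2657 and 2824 in WT. The lowest KO sum was above the highest WT sum. The means were 4988 ± 860 and 2845 ± 199 (SD, n = 3 listed values each), a ratio of 1.75.

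**Figure D1:**
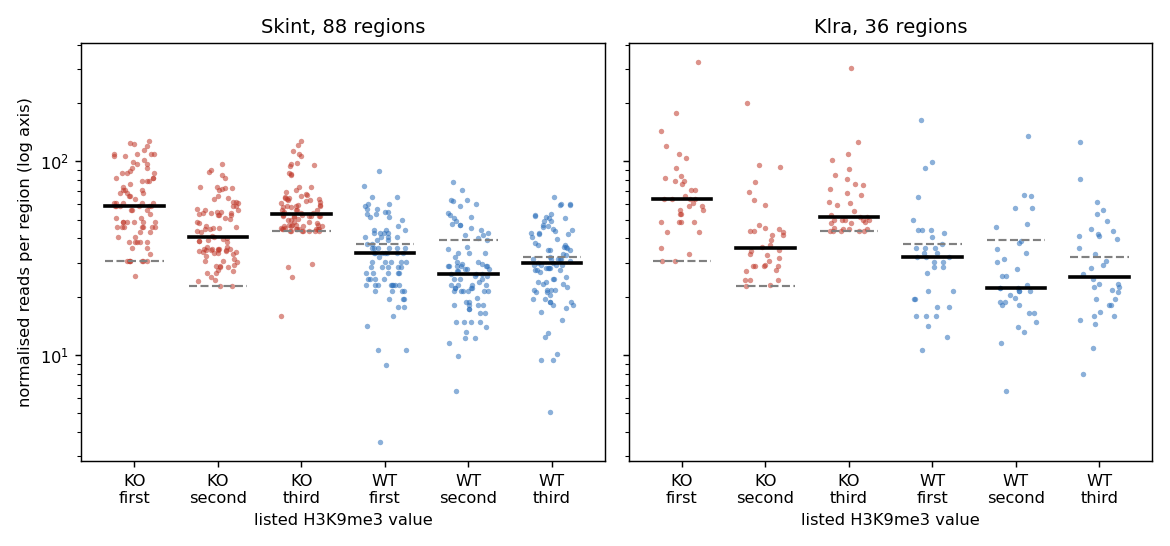
Normalised H3K9me3 read count per region (log axis) for the 88 Skint regions (left) and the 36 Klra regions (right), by listed value, with KO in red and WT in blue. Each point is 1 region, the black bar is the median, and the dashed line is the limit fitted to the listed values at that place. The KO medians lie above the WT medians in both families, and the second KO value has the lowest KO median.

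The strongest Skint region lay in Skint6, a large gene in the middle of the cluster. At chr4:113050901-113052000, in the gene body, the values were 63.68, 27.03 and 68.08 in KO and 10.64, 6.56 and 21.75 in WT. All KO values were above the WT values, with the second KO value closest to them. The means were 52.9 ± 22.5 and 13.0 ± 7.86 (SD, n = 3), and the log2 fold change was 2.03. This rests on few reads, 25, 62 and 81 in KO and 6, 8 and 30 in WT, where reads are the whole numbers recovered from the steps of the normalised values.

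A second Skint6 region, chr4:113087801-113088800, had values of 91.71, 25.29 and 46.23 in KO and 21.27, 12.3 and 19.57 in WT. The groups did not overlap, although the second KO value exceeded the highest WT value by little. The log2 fold change was 1.62.

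In Skint5, the neighbouring large gene, the region chr4:113919301-113921300 had 124.82, 73.25 and 95.81 in KO and 33.68, 29.53 and 49.3 in WT. It is longer (2000 bp) and better covered, and every KO value was well above every WT value. The means were 98 ± 25.9 and 37.5 ± 10.4, with a log2 fold change of 1.39.

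Regions of smaller genes of the cluster showed the same direction. In the gene body of Skint2, the region chr4:112622401-112624500 had 122.27, 66.27 and 105.9 in KO and 33.68, 42.65 and 53.65 in WT, with a log2 fold change of 1.18. In Skint4, the region chr4:112117301-112118700 had 58.59, 34.01 and 60.51 in KO and 10.64, 26.25 and 9.42 in WT, with a log2 fold change of 1.73. Neither region had overlapping groups, and in both the second KO value was the lowest of its genotype.

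Skint1, the member with the known role in T cell selection, held 2 regions, both higher. At chr4:112019801-112020800 the values were 38.21, 24.42 and 44.54 in KO and 3.55, 17.22 and 15.22 in WT (log2 fold change 1.57). At chr4:112024001-112025300 they were 40.76, 30.52 and 57.99 in KO and 15.95, 18.86 and 21.02 in WT (1.21). The groups were apart at both. The first of these regions rests on few recovered reads, 15, 56 and 53 in KO and 2, 21 and 21 in WT.

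The 4 lower Skint regions stood among higher ones in the same genes, and 2 of them had separate groups. Skint11, the last gene of the cluster, had 30.57, 28.34 and 28.58 in KO and 54.95, 63.15 and 51.47 in WT at chr4:114216601-114217900. Every KO value was below every WT value, as at 54.2% of all listed regions (log2 fold change -0.95), while the other 5 regions of Skint11 were higher. In Skint5, chr4:113933801-113934800 had 35.66, 22.67 and 15.97 in KO and 39.0, 41.83 and 42.05 in WT, also without overlap (-0.73). This region lies close to the higher Skint5 region described above.

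The other 2 lower regions had overlapping groups. At chr4:113551701-113552800 in Skint5 the values were 45.85, 40.11 and 25.21 in KO and 44.32, 63.15 and 50.75 in WT (-0.51). At chr4:113210801-113211800 in Skint6 they were 25.47, 38.8 and 29.42 in KO and 74.45, 39.37 and 36.25 in WT (-0.68). When the values were rescaled to the median ratio over all listed regions, these 2 and the lower Skint5 region with separate groups changed sign, to 0.48, 0.2 and 0.28. The Skint11 region moved to -0.05. The remaining 79 Skint regions had log2 fold changes from 0.4 to 1.57, KO means from 33.0 to 110 and WT means from 12 to 64.9. Groups were separate at 55 of them, beside 70.0% of all higher regions.

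Most Skint regions lay in the 2 longest genes. Skint6 held 35 regions (34 higher) and Skint5 held 28 (26 higher), together 63 of 88 or 71.6%. These genes make up 68.3% of the summed length of the 11 Skint genes (1004.0 of 1470.0 kb), so their share of regions was close to their share of length. Skint3 held 6 regions (6 higher), Skint11 6 (5 higher), Skint4 and Skint9 4 each, Skint1 and Skint2 2 each and Skint8 1, all higher in these last 5 genes. Skint7 and Skint10 held none.

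Per kb of listed region, Skint6 and Skint5 reached similar levels. Regions entered the list by these same values, so the similarity is a description and nothing is read from it. The 3 KO values were 49.4, 35.8 and 45.3 normalised reads per kb in Skint6 and 50.2, 35 and 45.2 in Skint5. The WT values were 26.6, 23.1 and 23.9 in Skint6 and 28.1, 22.1 and 26.5 in Skint5. Skint9 had the highest single KO value, 68.4 per kb in the first listed value, and Skint1 the lowest single WT value, 8.48. Summed per gene, KO and WT overlapped at Skint8 alone of the 9 Skint genes.

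Regions with a Skint symbol made up only a portion of the listed regions between the first and the last Skint gene. The span chr4:111919555-114245028 (2.33 Mb) held 155 listed regions, and the 67 without a gene symbol were higher at 56 and lower at 11. It held 140 higher regions in all, a number reached in 3.05% of 1049 tiles of the same length over the autosomes. The family was chosen by its direction in these values, so this share is a description and no test. In the 500 kb before the span 1 listed region was higher and 7 were lower, and in the 500 kb after it 18 were higher and 2 lower.

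**Figure D2:**
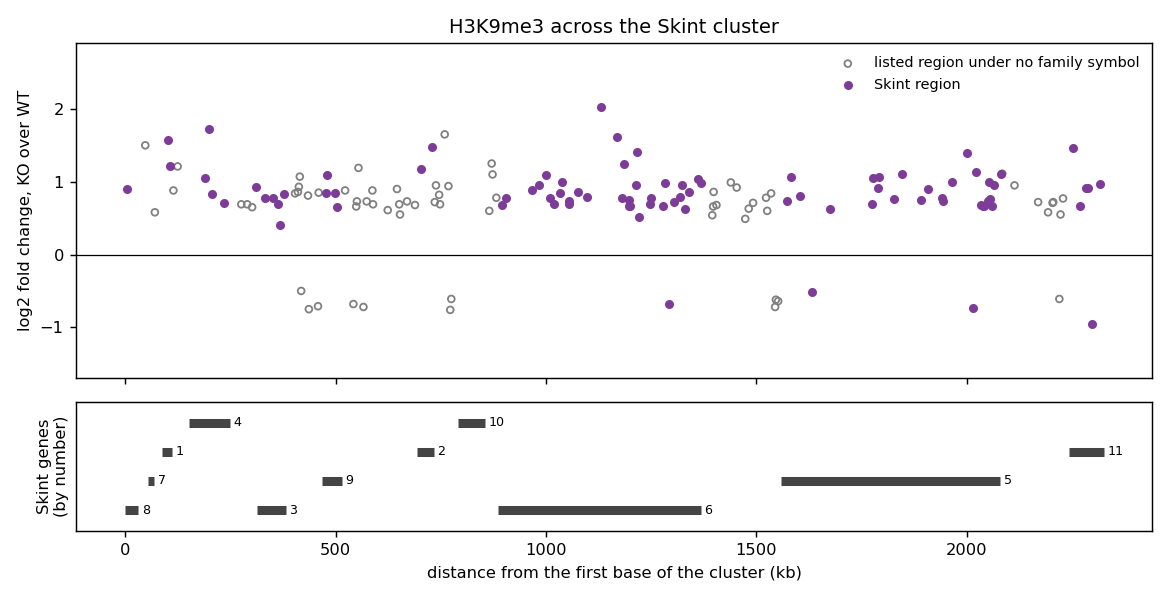
Log2 fold change (KO over WT) of every listed H3K9me3 region across the Skint cluster against the distance in kb from its first base, with the 11 Skint genes as bars below. Filled points are the 88 Skint regions and open circles the 67 regions under no family symbol; points sit mostly between 0.5 and 1.5 along the whole span, with 4 filled points below 0.

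The Klra cluster showed the same direction as the Skint cluster on another chromosome. Of its 36 regions, 35 were higher and 1 lower, with a median log2 fold change of 0.9 (0.62 to 1.92 among the higher ones). Of the 35, 14 reached 1, beside 3648 of the 14615 higher regions of the whole table. Over the 35 higher regions the median normalised read counts were 63.7, 36.2 and 51.3 in KO and 31.9, 22.1 and 24.6 in WT. The 3 KO values were all above the 3 WT values at 23 of the 35 (65.7%), beside 70.0% of all higher regions and 20.2% of all listed ones. Nothing is read from this share either.

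Summed over all 36 Klra regions, the values were 2741, 1637 and 2437 in KO and 1338, 1122 and 1194 in WT. The second KO sum stood nearest to WT, and the groups did not overlap. The means were 2272 ± 570 and 1218 ± 110 (SD, n = 3), a ratio of 1.86.

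The largest Klra fold change was at chr6:130315001-130316000, listed under Klra15. Its values were 78.97, 36.19 and 43.7 in KO and 10.64, 13.12 and 18.12 in WT, and every KO value was clearly above the WT values. The means were 53.0 ± 22.8 and 14 ± 3.81, with a log2 fold change of 1.92, from 31, 83 and 52 reads in KO and 6, 16 and 25 in WT.

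Klra17, the first gene of the cluster, held the 2 regions with the highest KO means. The region chr6:129866101-129872500, the longest of either family at 6400 bp, had 323.52, 200.12 and 303.41 in KO and 163.09, 134.51 and 125.42 in WT (log2 fold change 0.97). Upstream in coordinate, chr6:129839401-129842100 had 178.32, 95.92 and 125.23 in KO and 92.18, 33.63 and 55.82 in WT (1.14). In both the groups were apart, and in the second of them the lowest KO value was just above the highest WT value. Summed over its 5 regions, Klra17 had 568 ± 147 in KO and 281 ± 39.3 in WT.

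Klra12 carried the most regions of the family, 13, all higher. At chr6:130237401-130238700 the values were 71.33, 34.88 and 67.24 in KO and 31.91, 18.04 and 16.67 in WT (1.38). At chr6:130087201-130089200 they were 109.54, 62.78 and 108.42 in KO and 44.32, 47.57 and 42.05 in WT (1.07). Neither region had overlapping groups. The last of these lies within Klra11-ps of the reference, a pseudogene to which the table gives no region of its own.

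The 1 lower Klra region, chr6:130003201-130004400 under Klra15, had 76.42, 31.83 and 47.91 in KO and 99.27, 66.43 and 61.62 in WT. The first KO value was above 2 of the WT values, so the groups overlapped, and the log2 fold change was -0.54. It turned to 0.42 under the median-ratio rescaling. The remaining 30 Klra regions had log2 fold changes from 0.62 to 1.46, KO means from 34.3 to 112 and WT means from 13.6 to 61.0. Groups were separate at 18 of them, beside 70.0% of all higher regions.

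The other Klra symbols held few regions. Klra15 held 8 (7 higher). Klra17 held 5, Klra7 3 and Klra9 2, and Klra3, Klra4, Klra18, Klra13-ps and Klra14-ps held 1 each, all of them higher. Klra7 had the highest ratio of summed values, 155 ± 45.5 in KO against 69.4 ± 13.4 in WT (2.23). At Klra9, Klra4, Klra13-ps and Klra15 the summed KO and WT values overlapped. At Klra13-ps, for example, the values were 63.7, 28.8 and 48.8 in KO and 44.3, 22.1 and 16 in WT.

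Klra12, Klra15 and Klra18 are not among the symbols of the RefSeq reference used here, and they carry 22 of the 36 regions. The transcripts that the table gives under Klra12 span 262.5 kb and those under Klra15 408.6 kb, while the reference Klra genes from Klra6 to Klra1 are 10.2 to 23.6 kb long. Only 2 of the 22 regions lie inside a reference Klra gene, and 20 lie between them, so regions with these symbols are better read as places in the cluster than as gene bodies. By overlap with reference genes in place of symbols, the family had 13 higher and 2 lower regions.

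Of 16 Klra genes in the reference, 9 had no region by symbol. Klra16 and Klra23 lie on another sequence, Klra1, Klra5, Klra6, Klra8 and Klra10 were overlapped by no listed region, and Klra11-ps and Klra2 were overlapped under another symbol or none. Klra2, which stands apart at chr6:131198970-131247716, was overlapped by 1 higher and 2 lower regions.

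The span chr6:129831154-131247716 (1.42 Mb) held 124 listed regions, of which 88 had no gene symbol (77 higher, 11 lower). It held 112 higher regions, a number reached in 1.56% of 1727 autosomal tiles of that length, again a description and no test. Without the distant Klra2 the cluster ends at base 130386874. That shorter span (0.56 Mb) held 42 higher regions, a number reached in 2.56% of 4420 tiles of its length. The 500 kb before that shorter span held 5 higher and 3 lower regions, and the 500 kb after it held 44 higher and 0 lower, none with a gene symbol.

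**Figure D3:**
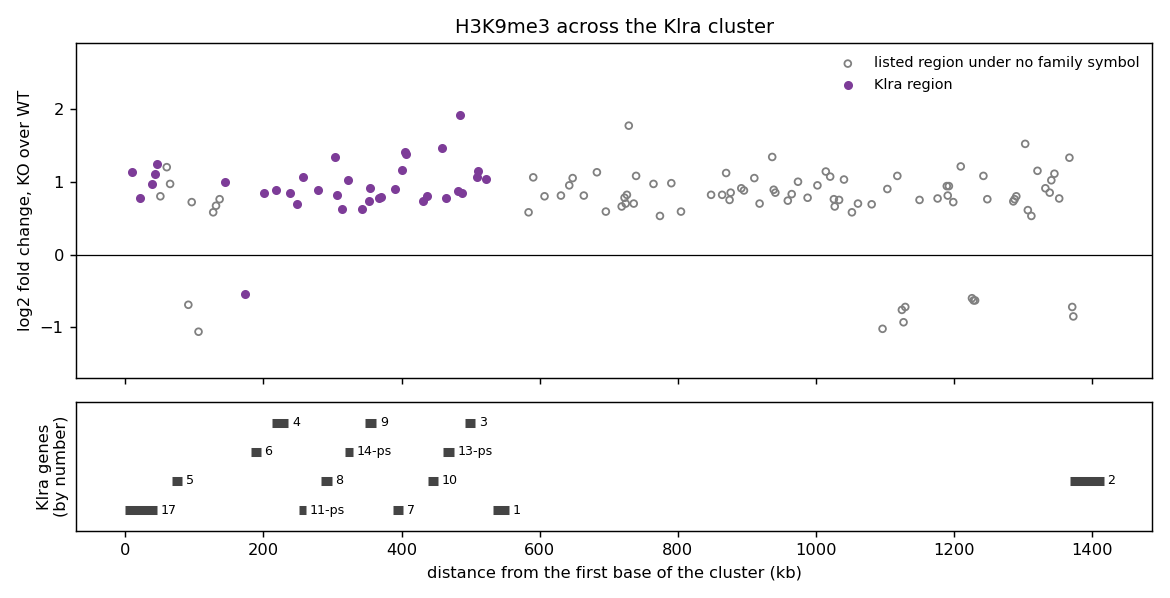
Log2 fold change (KO over WT) of every listed H3K9me3 region across the Klra cluster against the distance in kb from its first base, with the 14 Klra genes of the reference's main chromosome 6 sequence as bars below. Filled points are the 36 Klra regions and open circles the 88 regions under no family symbol (77 higher, 11 lower). The open circles continue from the last filled point to Klra2, where 1 higher and 2 lower regions overlap the gene.

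**Figure D4:**
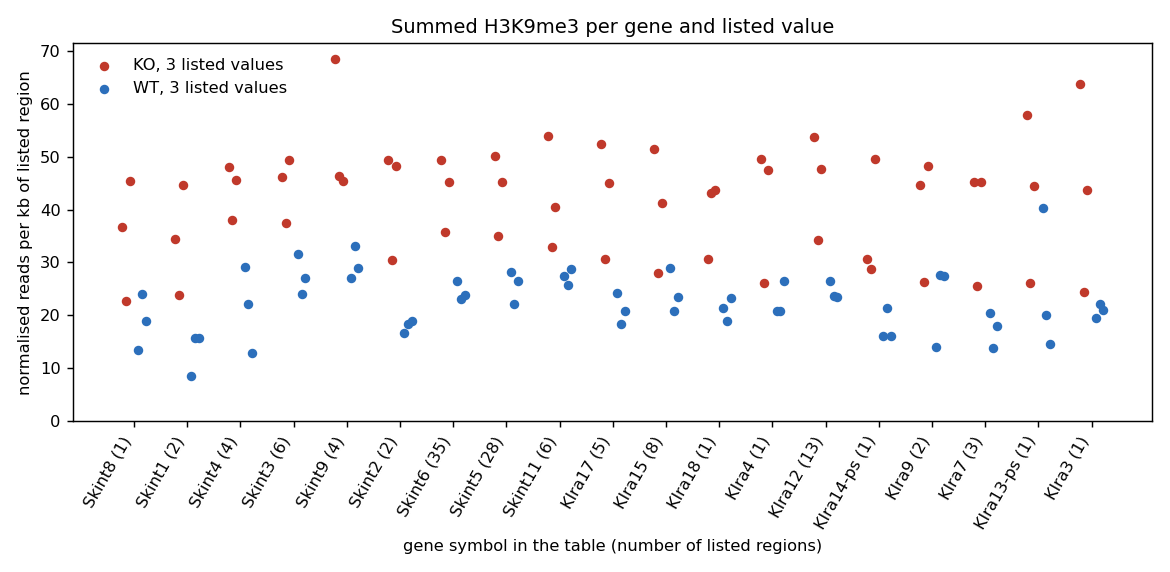
Normalised H3K9me3 reads per kb of listed region for each gene symbol (number of its listed regions in brackets), with the 3 KO values in red and the 3 WT values in blue. Most genes have KO values between about 25 and 55 and WT values under 30, and the groups overlap at Skint8, Klra15, Klra4, Klra9 and Klra13-ps.

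Few regions lay near start sites. The authors placed 85 Skint and 31 Klra regions in gene bodies and 3 and 5 in their promoter classes, all 8 of them higher. At Klra7, an inhibitory receptor gene, the region chr6:130231601-130233300, which covers its downstream start window, had 78.97, 37.06 and 75.64 in KO and 30.14, 25.43 and 30.45 in WT (log2 fold change 1.16). The groups were apart. A second Klra7 region lay farther upstream, chr6:130235401-130236700 (1.41), and the others were at Klra17 (1.25), Klra3 (1.07) and Klra4 (0.85).

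Upstream of Skint5 the region chr4:114000501-114001500 had 78.97, 36.19 and 43.7 in KO and 30.14, 22.97 and 20.3 in WT (1.11). Upstream of Skint6 the region chr4:113288201-113289400 had 61.14, 51.01 and 50.43 in KO and 35.45, 19.68 and 27.55 in WT (0.98). Both pairs of groups were apart. The listed region lay 748 bases from the Skint5 window and 978 bases from the Skint6 window, upstream in both genes. At Skint3 (0.93) the groups overlapped.

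How a region came to be listed bears on these values. Limits were fitted to the listed values so that in every region all 3 KO values or all 3 WT values reached theirs. They were 30.57, 22.67 and 43.7 for KO and 37.23, 39.37 and 31.9 for WT. That 0 of 50654 regions met neither follows from the fit, and the authors' own entry rule was not tested. Of the 84 higher Skint regions 75 (89.3%) met the KO limits only, as did 31 of the 35 higher Klra regions (88.6%) and 77.7% of all higher regions. By this very condition such regions had at least 1 WT value below its limit. A KO value within 25% above its limit was found at 46 higher Skint regions (54.8%), at 19 higher Klra regions (54.3%) and at 45.5% of all higher regions.

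Family genes without a region are genes for which the authors listed none by symbol, and unlisted stretches could not be compared with the limits. They are not shown to lack H3K9me3.

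The second KO value was the lowest of the 3 at 63 of the 84 higher Skint regions (75.0%) and at 33 of the 35 higher Klra regions (94.3%), against 57.4% of all higher regions. It is also the most deeply read, with 36400264 recovered reads in the listed regions. The first KO value had 11013626 and the third 13650389, and the WT values had 15930112, 19610759 and 28440703. The median recovered reads per Skint region were 23, 93.5 and 63.5 in KO and 19, 32 and 41 in WT. For Klra they were 25, 81.5 and 61 in KO and 18, 27 and 35 in WT. The part of depth in the fold changes was not tested.

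With the spread between listed values taken into account, few single regions passed. limma on log2(value + 1) over all 50654 regions gave an adjusted p of 0.05 or less to 2 Skint regions and 3 Klra regions, all higher, where 1.24% of all regions passed as higher and 14.9% as lower. They were Skint6 chr4:113103901-113105100, Skint5 chr4:113919301-113921300, Klra17 chr6:129866101-129872500, Klra12 chr6:130289201-130290300 and Klra15 chr6:130315001-130316000. At an unadjusted limma p of 0.05 or less there were 38 of 88 Skint and 15 of 36 Klra regions. Over the whole table there were 30408 of 50654, a larger share than in either family. Because the regions were listed on these same libraries, the counts describe the spread and are no independent evidence.

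The counts changed when single listed values were left out, for the whole table as well as for the families. Without the third KO value 24 Skint regions (23 higher) and 10 Klra regions passed, beside 2986 higher and 30932 lower over all regions. Without any other single value 0 of either family passed. Over all regions 10 then passed without the third WT value and 0 without each of the others. With limma-voom on the recovered reads 46 Skint regions were higher and 2 lower, and 17 Klra regions higher and 1 lower, where 14.1% of all regions were higher and 58.0% lower. After median-ratio rescaling 83 Skint and 35 Klra regions passed as higher, where 27.7% of all regions were higher and 5.97% lower. That rescaling moved the median of all regions by 0.79 on the log2 scale towards KO. It left 87 of 88 Skint and all 36 Klra regions higher by sign, against 41.4% of all regions.

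Other tandem receptor families of the table went the same way. Of 270 regions in olfactory receptor genes 256 were higher (94.8%, median log2 fold change 0.92), and of 271 in vomeronasal receptor genes 244 were higher (90.0%, median 0.78). The Skint share of 95.5% and the Klra share of 97.2% lay beside these, and the difference was not tested.

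Active chromatin was measured in other animals, by H3K27ac, and none was called in either cluster. Each of the 6 libraries had 0 peaks between the first and last gene with 10 kb on either side, for Skint and for Klra, and 0 of the 124 member regions held a peak in any library. With 0 in every library the genotypes cannot be compared by a test. The titles' first numbers, whose meaning the labels do not give, put 1 KO and 1 WT library under 508 and 2 and 2 under 2982. The libraries had 26393, 42712 and 11502 peaks in KO and 31951, 37342 and 12505 in WT, so the lists differ in length within each genotype.

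How often such stretches occur depended on their length. Of 1041 tiles as long as the Skint window 2.50% held no peak in any of the 6 libraries, and of 1704 tiles as long as the Klra window 5.46%. Without the distant Klra2 the Klra window is 0.58 Mb long, and 12.8% of 4263 tiles of that length held none. The nearest peaks lay 38.8 kb before and 232.6 kb after the Skint genes and 273.2 kb before and 44.9 kb after the Klra genes. With 100 kb on either side, Skint had 0, 1 and 0 peaks in KO and 1, 1 and 0 in WT, and Klra had 1, 2 and 1 in KO and 2, 2 and 1 in WT (two-sided exact permutation p = 1.00 for each, where 3 against 3 cannot go below 0.1). The depth of these libraries is unknown, so weak acetylation below the authors' peak threshold was not detectable.

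Genes that act with the receptors were followed through lists. A list of genes of the natural killer gene complex, on the same chromosome as Klra, had 7 regions in 6 of 36 genes. Most of its genes are lectin-like and encode related receptors or their ligands. Gabarapl1, Magohb, Styk1 and Tmem52b, also on the list, are not lectin-like. All 7 were lower, with a median log2 fold change of -1.54, in a table where 71.1% of all regions were lower and the median was -0.94. Clec12a, an inhibitory receptor of myeloid cells, had 5.09, 10.9 and 11.77 in KO and 63.82, 42.65 and 35.52 in WT at chr6:129347501-129348500 (-2.35). Klrb1c, which encodes the NK1.1 antigen, had 20.38, 22.24 and 86.57 in KO and 157.77, 198.48 and 150.8 in WT (-1.97), and Klrb1a had -1.63. At Clec12a and Klrb1c all KO values were below all WT values.

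The MHC class I genes, a family that includes the ligands of Ly49 receptors, were split. They had 6 higher and 6 lower of 12 regions in 9 of 33 genes, beside 28.9% higher and 71.1% lower in the whole table. The list also takes in the H2-Q, H2-T and H2-M genes, and which of its genes encode such ligands was not tested. H2-M9 (1.06) was among the higher and H2-Q2 (-1.58) and H2-T24 (-1.14) among the lower. The signalling genes downstream of such receptors had 4 regions in 3 of 9 genes, all lower, which is the direction of 71.1% of all regions. They lay in Inpp5d (-1.92), a lipid phosphatase that acts with inhibitory receptors, Syk (-1.38), a tyrosine kinase, and Cd247 (-1.35), the zeta chain of the T cell receptor complex. Of 12 butyrophilin family genes, relatives of Skint, only Btnl2 had a region, a lower one (-0.95). These regions are too few to set the lists apart from the table.

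Markers of cells that normally use these receptors were largely unlisted. Of 9 natural killer cell markers 1 had a listed H3K9me3 region (Klrb1c), of 5 gamma delta T cell and thymic epithelium markers 0, and of 3 keratinocyte markers 1 (Krt14, 1.06, with overlapping groups). H3K27ac peaks lay at 3, 4 and 2 of 7 neural progenitor marker genes in the KO libraries and at 5, 5 and 2 in WT. At natural killer markers they lay at 2, 2 and 2 of 9 genes in KO and 1, 2 and 1 in WT. Of the keratinocyte markers 1 of 3 had a peak in every library. Over 21887 protein-coding genes the share with a peak was 52.3%, 55.8% and 28.2% in KO and 55.4%, 54.6% and 30.2% in WT, so these small counts do not establish the cell type.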

How the data were processed

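Native ChIP-seq was made from 6 H3K9me3 and 6 H3K27ac libraries. Reads were processed against mm10 with Bowtie2 2.3.4.3 and MACS2, per the submitters' processing notes, where MACS2 has no version. Which tool compared the H3K9me3 libraries is not stated in them. The replicates are separate animals, per the labels' series design.

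The deposited H3K9me3 file lists regions made of 1000 bp windows, with 3 normalised values joined in 1 cell per genotype. The deposited group means are a normalised signal and the enrichment a ratio, per the file headers. In the deposited log2 fold changes, WT is the denominator. Raw and adjusted p-values per region are the authors' own. For H3K27ac the authors deposited 1 peak list per library, which gives every peak a score, its fold over background, and p and q as -log10.

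Values at a given position were whole multiples of a step (100% of values under 200 reads within 0.1 reads), which gave recovered reads. The value of 1 read was 2.547, 0.436 and 0.84 in KO and 1.773, 0.82 and 0.725 in WT, so the first KO value is the coarsest. limma 3.58.1 (R 4.3.3) was run with a mean-variance trend on log2(value + 1) and Benjamini-Hochberg adjustment over all listed regions, and was tested on simulated data. limma-voom on recovered reads, other pseudocounts, median-ratio rescaling and left-out listed values were alternatives, and the rescaling and left-out values of single regions were added after the data had been seen. Peaks were counted inside each cluster span with 10 kb added, and where any was found (100 kb added) compared by two-sided exact permutation over libraries. A list gene had a peak where 1 overlapped the gene with 1 kb added. Gene positions and promoter sequences were from RefSeq on GRCm38.p6, whose main chromosomes have the coordinates of mm10. Upstream sequences were compared by global alignment (biopython 1.88).

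The members and the gene lists were chosen with earlier results of these data known. Values per listed position were given for the 5 regions of each family with the smallest authors' adjusted p (equal ones ranked by p and then fold change) and for each region against the family's majority direction. The Skint1 and promoter regions and the regions that passed limma were added after their values had been seen. Up to 3 genes per list were named by smallest authors' adjusted p. H3K9me3 depth was judged from the recovered reads in listed regions only.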

Additional observations from a re-analysis of the deposited data

How the results depend on the processing

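The direction of the H3K9me3 difference in both families was kept under each alternative tried, while the number of regions past limma was not. The families were chosen by this direction and their regions were listed on the same libraries. That the direction was kept is therefore no independent evidence. At an absolute log2 fold change of 1 or more 22 Skint and 14 Klra regions were higher, beside 3648 over the whole table. By overlap with reference genes 13 Klra regions were higher. The log2 ratio of summed values was 0.81 for Skint and 0.9 for Klra, and 1.71 and 1.8 after median-ratio rescaling. Past limma were 2 Skint and 3 Klra regions. With a pseudocount of 0.5 there were 1 Skint and 2 Klra regions, beside 445 higher and 6146 lower over all regions. With 5 there were 10 and 8, beside 2254 higher and 16857 lower. There were 83 and 35 after median-ratio rescaling, and 48 and 18 with limma-voom. Leaving out 1 listed value gave 0 to 24 Skint and 0 to 10 Klra regions, and the count over all regions likewise fell or rose. Under the rescaling, 4 of the 5 lower regions turned, to 0.2 (Skint6 from 113210801), 0.48 (Skint5 from 113551701), 0.28 (Skint5 from 113933801) and 0.42 (Klra15 from 130003201), and the fifth (Skint11 from 114216601) moved to -0.05. Over the 6 libraries, 3 and 9 H3K27ac peaks lay in the Skint and Klra spans with 100 kb added. Except for the fewer members by overlap and the wider window, the cause was not tested. No paired analysis was possible because the listed H3K9me3 values carry no replicate number and the H3K27ac counts were 0 in every library.

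Single regions rest on few reads: the median Skint region had 23 recovered reads in the first KO value and 19 in the first WT value. Values were available for listed regions only, so losses and gains at unlisted regions were not detectable. Genotype, sex and the titles' first number cannot be fully told apart for H3K9me3. Assignment of reads among gene copies was not tested.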

Other observations

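Genes around the Skint cluster differed in direction. Agbl4, before the cluster, held 12 listed regions, of which 11 were lower and 1 higher (median log2 fold change -1.2). Trabd2b, after it, held 3 higher regions (0.97). Beyond Trabd2b, Tal1, a transcription factor of blood formation, held 2 lower regions (-0.92), and Cyp4a29, of the cytochrome P450 family, held 2 higher ones (0.79).

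Around the Klra cluster the named genes were also mixed. Olr1 (-1.09) and Clec2g (-1.54), both lectin-like genes, held 1 lower region each, and Gm156 held 1 higher region (0.75). After Klra2, Gm4736 held 6 higher regions (0.78), and the bitter taste receptor genes Tas2r107 (1.26) and Tas2r114 (0.84) held 1 higher region each, while 5430401F13Rik held 2 lower regions (-0.76). These genes were picked after their values had been seen.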
